A study of Mus musculus with 25 samples.

Results

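The miR-101 family in this series is 3 rows of a table of 1193 miRNA precursors: mmu-mir-101a, mmu-mir-101b and mmu-mir-101c. The rows were chosen by name, and the family was put forward with the age results of these same libraries known. Every difference between ages below is therefore a description of the family and not a test of it. The libraries are small RNA libraries of brain hemispheres from male C57BL/6 mice of 2, 9, 15, 24 and 30 months, with 5 libraries at each age and 25 in all. C57BL/6 is a common inbred laboratory strain, and the labels give no treatment, allele or transgene at any age. Each title has its own animal number, and replicates were taken as separate mice. RNA came from bulk tissue. In such samples fewer cells of a type and less RNA per cell cannot be told apart. All 3 precursors passed the filter on low counts, which left 425 for fitting.

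A miRNA is cut from a hairpin precursor and guides an Argonaute protein to mRNAs that pair with its seed, the short stretch near its 5′ end. miR-101 is a conserved vertebrate family best known for repressing Ezh2, a histone methyltransferase of Polycomb complexes, and Ptgs2, an inducible cyclooxygenase. In neurons it is known to repress App, the amyloid precursor protein, and during postnatal development it restrains network excitability in part through the chloride importer Slc12a2. None of these mRNAs was measured in these libraries.

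The mature sequences are shown because they set which reads can be assigned to which locus. They are from RefSeq on GRCm38.p6, where all 3 members were matched by symbol; capitals mark the seed, bases 2 to 8 from the 5′ end.
mmu-miR-101a-3p: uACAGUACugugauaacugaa
mmu-miR-101b-3p: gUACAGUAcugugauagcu
mmu-miR-101c: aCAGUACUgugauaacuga
mmu-miR-101a-5p: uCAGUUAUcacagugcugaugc
mmu-miR-101b-5p: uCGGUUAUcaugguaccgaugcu

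The annotated 5′ ends of the 3p miRNAs are staggered, so that the seed of miR-101a-3p, ACAGUAC, begins at base 2 of miR-101a-3p, base 3 of miR-101b-3p and base 1 of miR-101c. By annotated 5′ end no 2 members share a seed, and none of the 1738 mature sequences in the table has the same bases 2 to 8 as any of the 5 arms. The letters ACAGUAC, searched on the given strand, lie in 4 of the 1738 mature sequences (0.23%), the 3 family members and miR-503-5p, where they start at base 12. Aligned on this shared stretch, miR-101a-3p and miR-101b-3p overlap by 18 bases and match at 17. The difference is A16G, with the base of miR-101a-3p first and positions counted from its 5′ end. The 5p arms differ at 5 of 22 aligned bases. How reads that fit both mir-101a and mir-101b were assigned is not given. Shares, levels and correlations of these 2 loci may therefore include each other's reads. All 19 bases of miR-101c lie inside miR-101a-3p without a mismatch, so sequence alone cannot tell a miR-101c read from a shortened miR-101a-3p read.

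The 2 abundant hairpins are shown with their annotated mature arms in capitals, the 5p arm first, since the deposited counts are given per precursor and do not separate the arms.
Mir101a hairpin: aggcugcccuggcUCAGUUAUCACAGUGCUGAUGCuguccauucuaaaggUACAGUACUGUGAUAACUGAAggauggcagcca
Mir101b hairpin: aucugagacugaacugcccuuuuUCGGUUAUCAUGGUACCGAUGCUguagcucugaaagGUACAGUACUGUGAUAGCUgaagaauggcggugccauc

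In GRCm38, Mir101a lies at chr4:101346945-101347027 on the minus strand, in an exon of the long noncoding RNA gene E130102H24Rik on the same strand (GENCODE M21). Mir101b lies at chr19:29135279-29135375 on the plus strand, in an intron of Rcl1, a gene for a ribosomal RNA processing factor, also on the same strand. Mir101c lies at chr9:3038669-3038743 on the minus strand and overlaps no annotated gene.

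Library totals ranged from 3779993 to 9524043 reads. Levels are in CPM, the counts of a precursor scaled to a common library size that was adjusted by TMM, edgeR's trimmed-mean method. Neuronal markers (mir-124, mir-9 and mir-128 loci) summed to between 58840 and 79780 CPM, while the liver marker mir-122 lay between 0.160 and 5.99 CPM. Copies such as mir-9-1, mir-9-2 and mir-9-3 share mature sequence and averaged 11450, 11460 and 11440 CPM. The neuronal sum may therefore count the same reads more than once. Column names carry the sequencing lane, and on the second principal component of log2 CPM, with 27.9% of the variance, the 5 libraries of lane 3, 1 per age, did not overlap the other 20. On the first component, with 44.6%, and the third, with 8.76%, they did overlap. Results for the family are also given without the lane 3 libraries.

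mir-101a supplied most of the family's reads. It held 80.4% of them on average, with 79.3% to 81.2% in single libraries, and mir-101b held 19.6%, with 18.8% to 20.7%. mir-101c held 0.0160%, or 3 to 15 reads per library. By mean share of a library, mir-101a ranked 29 of 1193 precursors with 0.726% of all reads, mir-101b ranked 79 with 0.176%, and mir-101c ranked 411. These ranks count copies of 1 miRNA as separate precursors. Each read was taken as 1 small RNA, so levels were not divided by length. Because mir-101c reads fit within the miR-101a-3p sequence and are so few, no level of its own is claimed for that locus.

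mir-101a was lowest at 2 months and higher at each later age. Its levels at 2 months were 5910, 5638, 6311, 6094 and 6008 CPM in replicates 1 to 5, with a mean of 5992 ± 247 CPM (SD, n = 5). At 9 months they were 7297, 8362, 6737, 7074 and 7336 CPM, with a mean of 7361 ± 608 CPM. The lowest 9-month library was above the highest 2-month library, and the highest, replicate 2, was the lane 3 library.

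At 15 months mir-101a measured 7391, 7937, 8334, 7549 and 7655 CPM, with a mean of 7773 ± 371 CPM (SD, n = 5). At 24 months it measured 7366, 6961, 7534, 7485 and 7342 CPM, with a mean of 7337 ± 225 CPM. At 30 months it measured 7866, 8044, 7765, 7701 and 7755 CPM, with a mean of 7826 ± 135 CPM. All 20 libraries of 9 months and older therefore lay above all 5 libraries of 2 months. Such a gap, with the later age higher, was found for 5.41% of the precursors tested at 15 against 2 months and for 5.65% at 24 against 2 months. The lane 3 library was again the highest of the 5 at 15 months, but not at 24 or 30 months. Apart from replicate 2, the 9-month libraries measured at most 7336 CPM. They lay below every library of 15 and of 30 months and overlapped those of 24 months. No fit compared 30 with 9 months. Ordered by mean, the ages ran 2, 24, 9, 15 and 30 months, and of the neighbours in that order only 2 and 24 months had ranges that did not overlap.

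mir-101b, transcribed within a protein-coding host gene on another chromosome, also was lowest at 2 months, at a lower level throughout. At 2 months it measured 1517, 1361, 1563, 1511 and 1565 CPM in replicates 1 to 5, with a mean of 1504 ± 83.3 CPM (SD, n = 5). At 9 months it measured 1823, 1941, 1656, 1663 and 1782 CPM, with a mean of 1773 ± 119 CPM. As for mir-101a, these ranges did not overlap. At 15 months it measured 1858, 1851, 1998, 1832 and 1770 CPM, with a mean of 1862 ± 83.7 CPM. At 24 months it measured 1776, 1782, 1825, 1810 and 1758 CPM, with a mean of 1790 ± 26.6 CPM. At 30 months it measured 1819, 1954, 1946, 1883 and 1877 CPM, with a mean of 1896 ± 55.8 CPM. The 4 later ages overlapped one another from one age to the next, and none of them reached down to the 2-month libraries. Read assignment between the loci is not given, so these levels may not be separate from those of mir-101a.

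**Figure D1:**
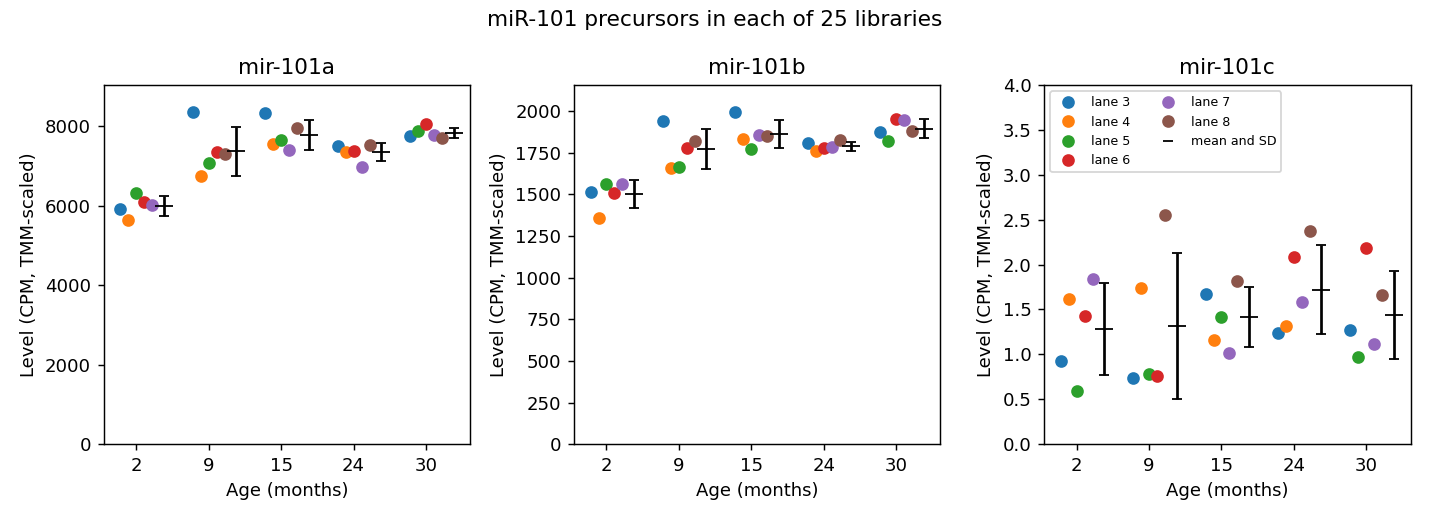
Levels of mir-101a, mir-101b and mir-101c (CPM, TMM-scaled, linear axes from 0) in each library at 2, 9, 15, 24 and 30 months; points are libraries coloured by sequencing lane, and black marks are the mean and SD of 5 libraries. For mir-101a and mir-101b the 2-month points, at most 6311 and 1565 CPM, lie below every point of the later ages, while mir-101c overlaps at all ages between 0.598 and 2.55 CPM.

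Between 30 and 2 months, the widest interval, mir-101a averaged 7826 ± 135 CPM at 30 months and 5992 ± 247 CPM at 2 months (SD, n = 5 each), a log2 fold change of 0.39 ± 0.05 (SE) and a 1.31-fold higher level. mir-101b averaged 1896 ± 55.8 CPM at 30 months and 1504 ± 83.3 CPM at 2 months, a log2 fold change of 0.33 ± 0.04 and a 1.26-fold higher level. Both passed the threshold of the edgeR quasi-likelihood fit in the higher direction (Benjamini-Hochberg adjusted over 425 precursors), as did 19.1% of all precursors tested, while 17.9% passed in the lower direction. These were 81 higher and 76 lower precursors, and 50 higher and 91 lower with upper-quartile scaling, where both members were still called. Both also had ranges that did not overlap, with the 30-month libraries above the 2-month ones, as did 10.4% of the precursors tested. Without the lane 3 libraries the log2 fold changes were 0.35 for mir-101a and 0.31 for mir-101b.

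The difference between 9 and 2 months made up most of that interval. mir-101a averaged 7361 ± 608 CPM at 9 months and 5992 ± 247 CPM at 2 months (SD, n = 5 each), a log2 fold change of 0.30 ± 0.05 (SE). mir-101b averaged 1773 ± 119 CPM at 9 months and 1504 ± 83.3 CPM at 2 months, a log2 fold change of 0.24 ± 0.04. Calls were rarer here than over the wide interval: 7.76% of the 425 precursors passed, 1.88% in the higher direction (8 precursors) and 5.88% in the lower, and mir-101a and mir-101b were both among those higher. Without the lane 3 libraries 21 precursors were higher and 19 lower. Non-overlapping ranges with 9 months higher were found for 1.41% of precursors, again with both members among them. Without lane 3 the log2 fold changes were 0.25 for mir-101a and 0.21 for mir-101b. mir-101b lost its call when libraries were scaled by the upper quartile (0.21) or when the fit held only these 2 ages (0.23).

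After 9 months neither abundant member was called between neighbouring ages. From 9 to 15 months the log2 fold change was 0.08 ± 0.05 (SE, n = 5 per age) for mir-101a and 0.07 ± 0.04 for mir-101b, and edgeR called 0% of the precursors tested; 27 of 425 had an unadjusted p under 0.05, and DESeq2 called 2. From 15 to 24 months it was -0.08 ± 0.05 for mir-101a and -0.06 ± 0.04 for mir-101b, where 0.235% of precursors were called and no member was. From 24 to 30 months it was 0.09 ± 0.05 for mir-101a and 0.08 ± 0.04 for mir-101b, where 8.71% of precursors were called (26 higher and 11 lower, but 11 and 19 with upper-quartile scaling) and again no member was. For mir-101a the 30-month libraries (7701 to 8044 CPM) did not overlap the 24-month ones (6961 to 7534 CPM), which held with 30 months higher for 3.06% of precursors. They did overlap when levels were taken per library total, with 7396 to 8042 CPM at 30 months and 7036 to 7602 CPM at 24 months. A straight line on age gave a log2 slope per 12 months of 0.12 ± 0.03 for mir-101a and 0.11 ± 0.02 for mir-101b, both past the threshold with a positive slope, as for 19.5% of precursors. This slope alone does not show a steady rise, as the estimate from 15 to 24 months was negative for both. The missing calls after 9 months cannot decide it, because each step spans less than 12 months and has an SE of 0.04 or 0.05.

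**Figure D2:**
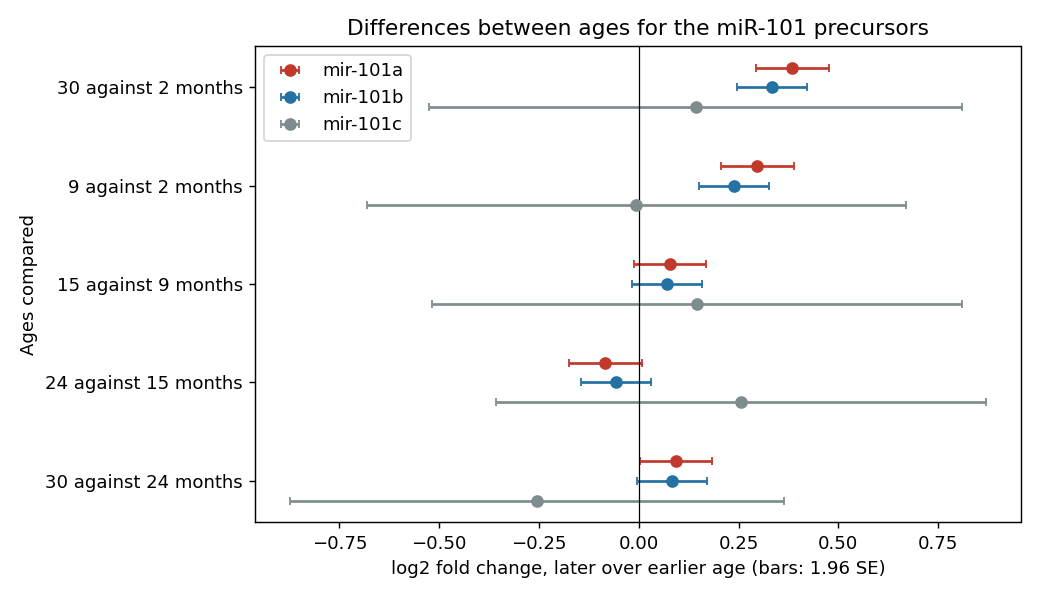
Log2 fold changes of the later over the earlier age (x axis) for 5 pairs of ages (y axis); points are edgeR estimates for mir-101a, mir-101b and mir-101c, and bars reach 1.96 SE to each side. The bars of mir-101a and mir-101b lie to the right of 0 for 30 against 2 months and 9 against 2 months, and the bar of mir-101a for 30 against 24 months begins just above 0. The bars of mir-101c span 0 in all 5 pairs.

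mir-101c gave no difference that its counts could resolve. It averaged 1.44 ± 0.489 CPM at 30 months and 1.28 ± 0.512 CPM at 2 months (SD, n = 5 each), a log2 fold change of 0.14 ± 0.34 (SE). Its values at 30 months were 0.967, 2.18, 1.11, 1.66 and 1.27 CPM, against 0.925, 1.62, 0.598, 1.43 and 1.84 CPM at 2 months, and the groups overlapped. The 5 libraries of an age held between 35 and 54 mir-101c reads together. At this depth a difference of the size seen for mir-101a was not detectable, since the interval of 1.96 SE around the mir-101c value ran from -0.53 to 0.81.

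When the 3 rows were summed and all precursors fitted again with their own scaling factors, the family total had a log2 fold change of 0.36 ± 0.05 (SE, n = 5 per age) between 30 and 2 months and of 0.29 ± 0.05 between 9 and 2 months. As a sum of the member levels above, with the scaling factors of the first fit, the total was 9723 ± 162 CPM at 30 months and 7497 ± 321 CPM at 2 months (SD). As a share of all reads it averaged 0.958% at 30 months and 0.753% at 2 months, where no TMM factor enters.

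The share of the 2 abundant loci in the family overlapped between ages. mir-101b supplied 20.1 ± 0.488% of the family's reads at 2 months, 19.4 ± 0.478% at 9 months, 19.3 ± 0.521% at 15 months, 19.6 ± 0.431% at 24 months and 19.5 ± 0.453% at 30 months (SD, n = 5 each). The share at 30 months, 18.8% to 20.03%, overlapped that at 2 months, 19.5% to 20.7%. The share also differed by lane: the lane 7 library had the highest mir-101b share of its age at all 4 ages that had a lane 7 library (20.03% to 20.7%). Differences between lanes held 48.3% of the variance of this share and differences between ages 26.2%. For the levels the order was the reverse, with age holding 83.5% of the variance of log2 CPM of mir-101a and lane 13.9%, and age 79.8% and lane 18.5% for mir-101b. For mir-101c, at a few reads per library, lane held 46.1% and age 11.1%. Lane and age are not fully balanced, so these shares overlap, and they are descriptions. Any grouping into 6 lanes or 5 ages also holds some variance by chance. That part was not estimated, so a small share here does not show a lane or age effect.

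**Figure D3:**
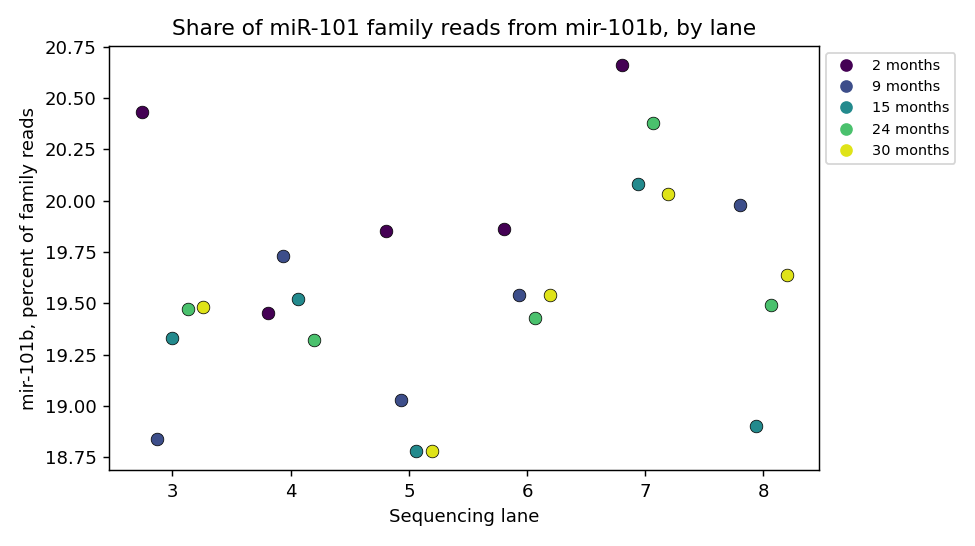
Percent of the family's reads that came from mir-101b (y axis, not starting at 0) in each of 25 libraries by sequencing lane (x axis), with points coloured by age. The 4 libraries of lane 7 lie between 20.03% and 20.7%, and the whole range is 18.8% to 20.7%.

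Within single lanes the differences between ages had the same direction for both abundant members. In the 4 lanes that held both ages, the difference in log2(CPM + 0.5) of 30 minus 2 months was 0.39, 0.32, 0.40 and 0.37 for mir-101a in lanes 3, 5, 6 and 7. For mir-101b it was 0.31, 0.22, 0.37 and 0.31 in the same lanes. The difference of 9 minus 2 months was 0.50, 0.26, 0.16 and 0.27 for mir-101a in lanes 3, 4, 5 and 6, and 0.36, 0.28, 0.09 and 0.24 for mir-101b. Of the 9 minus 2 month differences, lane 3 gave the widest for both members and lane 5 the narrowest. Each lane holds 1 library per age, so these values have no replicate within a lane.

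Across the 25 libraries the precursor whose profile was most like that of mir-101a was mir-101b, and the reverse held too, among the precursors whose mean reached 10 CPM. Pearson's r of log2(CPM + 0.5) was 0.96, and 0.797 after each age's mean was subtracted, when each was still the closest match of the other. Both members come from the same libraries and scaling, and reads may be shared between them by assignment, so these values are descriptions. The next closest to mir-101a was mir-152, a miRNA of the miR-148 seed family (r = 0.789), then mir-341 of the imprinted Dlk1-Dio3 region (r = 0.753). For mir-101b they were mir-152 (r = 0.769) and mir-1249 (r = 0.738). Subtracting age means left r at 0.304 between mir-152 and mir-101a but at 0.774 between mir-341 and mir-101a. The most opposed profile was that of mir-1983 for both, with r of -0.836 for mir-101a and -0.837 for mir-101b. No such ranking is given for mir-101c, whose 3 to 15 reads per library leave its profile to counting noise.

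**Figure D4:**
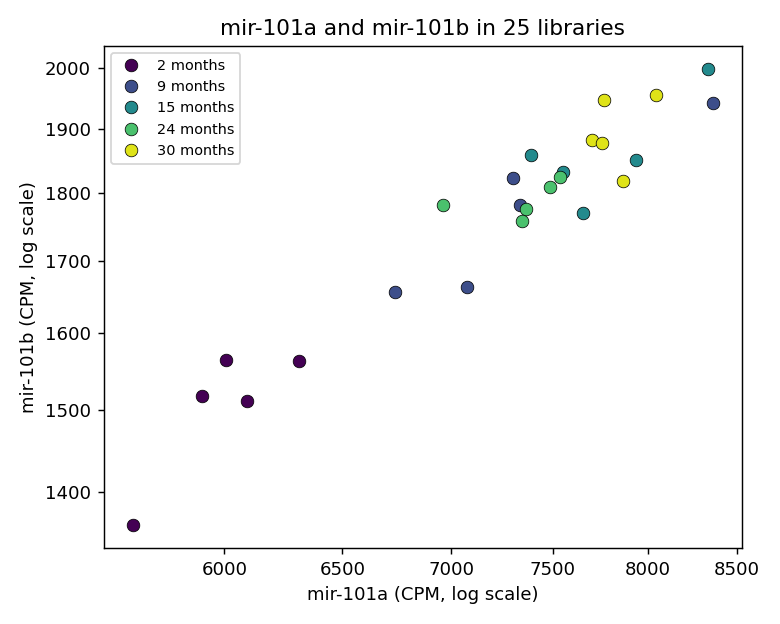
mir-101b against mir-101a in 25 libraries (CPM, both axes on a log scale), coloured by age. The 5 libraries of 2 months lie at the lower left, at most 6311 CPM of mir-101a and 1565 CPM of mir-101b, apart from the other 20.

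Other miRNAs that are known to repress targets of miR-101 were called in both directions. Of 19 such precursors on 4 lists (for Ezh2, App, Atxn1 and Ptgs2), 18 were tested between 30 and 2 months; 4 passed as higher, 5 as lower and 9 did not pass, against 36.9% of all precursors called in either direction. Their median log2 fold change was -0.02, beside 0.05 over all 425. With RLE scaling 2 were higher and 5 lower, with library totals 3 and 5, and with upper-quartile scaling 0 and 5, so the higher calls depended on the scaling.

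Among miRNAs that repress Ezh2, mir-26b was higher (0.24 ± 0.08, SE, n = 5 per age), while mir-138-1 (-0.18 ± 0.06) and mir-138-2 (-0.19 ± 0.06), 2 copies of a neuron-enriched miRNA, were lower. mir-26a-1 (0.14 ± 0.07), mir-26a-2 (0.13 ± 0.07) and mir-214 (0.19 ± 0.25) did not pass. Among those that repress App, the 2 mir-16 copies were each higher by 0.20 ± 0.08, and mir-17 (-0.29 ± 0.08), mir-20a (-0.46 ± 0.12) and mir-153 (-0.20 ± 0.07) were lower, with mir-106b at 0.06 ± 0.05. Of the list for Atxn1, the ataxin-1 gene, no call was made, with values from -0.44 ± 0.22 for mir-19a to -0.10 ± 0.18 for mir-19b-1. Of the pair for Ptgs2, mir-199a-1 was higher (0.27 ± 0.08) and mir-199a-2 lay at 0.29 ± 0.12. Copies of 1 miRNA share mature sequence, so their values are not separate measurements.

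Between 9 and 2 months, the interval that held most of the miR-101 difference, 1 of these 18 precursors passed, beside 7.76% of all precursors tested. It was mir-214, which was lower (-0.96 ± 0.29, SE, n = 5 per age). Its mean over all libraries was 1.71 CPM, and its call was lost with upper-quartile scaling and without lane 3. Without lane 3, mir-130a (-0.28 ± 0.07) and mir-199a-1 (-0.27 ± 0.08) were called lower, among 19 called lower of 421 precursors tested. A relative by seed, mir-144 of the erythroid mir-144/451a locus, is shown with its seed in capitals, which matches that of miR-101a-3p at 6 bases.
mmu-miR-144-3p: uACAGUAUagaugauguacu
mir-144 averaged 116 CPM over all libraries and did not pass between 30 and 2 months (0.79 ± 0.36) or between 9 and 2 months (0.47 ± 0.35).

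Some markers of cell types were called between ages as well. Over all precursors tested, 19.1% were called higher and 17.9% lower between 30 and 2 months. Between 9 and 2 months 1.88% were called higher and 5.88% lower. All 3 oligodendrocyte precursors were higher at 30 than at 2 months, their summed level lying at 3612 to 4554 CPM at 30 months and 2486 to 2912 CPM at 2 months. Between 9 and 2 months these 3 did not pass, with sums of 2679 to 3200 CPM at 9 months and 2486 to 2912 CPM at 2 months. Without lane 3, mir-219a-1 was higher there (0.40 ± 0.12, SE). Of 8 neuronal precursors mir-128-1 and mir-128-2 were lower between 30 and 2 months (-0.37 ± 0.09 and -0.35 ± 0.09, SE) and between 9 and 2 months (-0.33 ± 0.09 and -0.29 ± 0.09), and the other 6 passed in neither. Without lane 3 both calls between 9 and 2 months were lost, and mir-124-3 was higher (0.16 ± 0.05). Of 6 choroid plexus and ciliated-cell precursors, 3 were higher between 30 and 2 months (1 under upper-quartile scaling, 2 without lane 3), with sums of 9157 to 10200 CPM at 30 months and 7716 to 9188 CPM at 2 months. The 8 epithelial and olfactory precursors (miR-200 and miR-183 clusters) varied widely within each age, at 1170 to 8701 CPM at 30 months and 367.3 to 7005 CPM at 2 months. No precursor of the endothelial (1), mural (2), erythroid (3), liver (1) or epithelial (8) lists passed between 30 and 2 months, and of 4 microglial and leukocyte precursors 2 were higher (1 under upper-quartile scaling) and 1 lower. Of 4 muscle precursors tested, mir-133a-1 (0.31 ± 0.08) and mir-133a-2 (0.25 ± 0.08) were higher, while mir-1a-1 lay at -0.50 ± 0.20 and mir-1a-2 at -0.36 ± 0.26, with a list median of -0.06. With RLE and with upper-quartile scaling mir-1a-1 was called lower, and with the last mir-133a-2 lost its call. The muscle list had sums of 230 to 278.6 CPM at 30 months and 187.7 to 250.8 CPM at 2 months. Between 9 and 2 months no marker list other than the neuronal one had a call with all 25 libraries. As above, copies of 1 miRNA, such as mir-128-1 and mir-128-2, are not separate measurements. The part of any of these markers in the miR-101 levels was not tested.

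**Figure D5:**
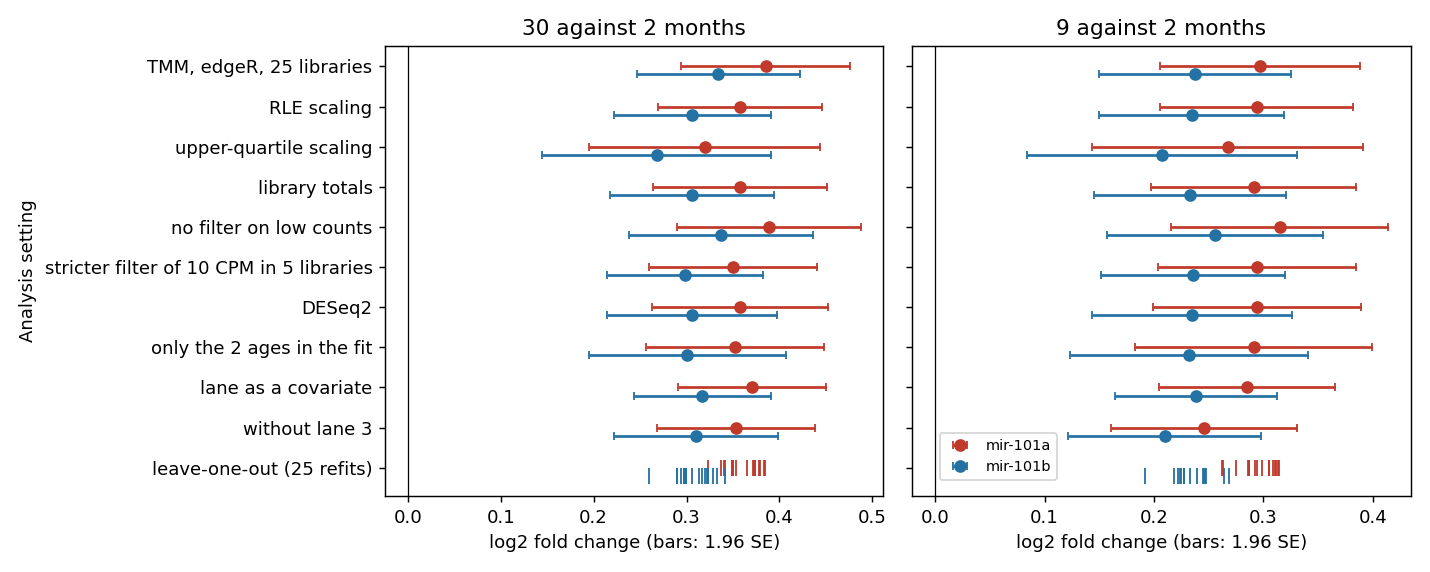
Log2 fold changes of mir-101a and mir-101b for 30 against 2 months (left) and 9 against 2 months (right) under each analysis setting (y axis); points are estimates, bars reach 1.96 SE to each side, and ticks in the lowest row are the 25 refits that each leave out 1 library. Estimates for 30 against 2 months lie between 0.32 and 0.39 for mir-101a and between 0.26 and 0.34 for mir-101b, all to the right of 0.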

How the data were processed

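The authors deposited whole-number read counts per miRNA precursor, both arms together, for 25 libraries. Per the labels' protocols, the TruSeq small RNA kit was used, and no molecular identifiers are described. Precision was therefore judged by the spread between replicates and not by counting error alone. For mir-101c, at 3 to 15 reads per library, counting error is a large part of that spread. Trimmomatic 0.36, SAMtools 1.3.1-9 and bcl2fastq 1.8.4 are listed in the submitters' processing notes. Aligner, counter, build and the treatment of reads with several matches: not given in the sources used here.

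edgeR's filterByExpr kept 425 of 1193 precursors, TMM factors ran from 0.952 to 1.04, and 1 quasi-likelihood fit held all 25 libraries with a mean per age (R 4.3.3, edgeR 4.0.16, limma 3.58.1). The slope came from a fit on age in months. A call is a Benjamini-Hochberg adjusted p under 0.05 over all tested precursors. The SE is the size of the log2 fold change divided by the square root of F. DESeq2 1.42.0 was an alternative, figures used Python 3.11.15 and matplotlib 3.10.9, and the fit was tested on simulated data. Alternatives were other scalings, no or a stricter filter, DESeq2, only the ages compared, lane as a covariate, and leaving out lane 3 or each library. No replicate pair matched within counting noise (chi-square per degree of freedom 19.6 to 304). Members, lists and tests were chosen with earlier results of these data known. Besides the members and list precursors, the text names the 3 most similar precursors and the most opposed one for mir-101a and mir-101b; those for mir-101c are left out for its few reads.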

Additional observations from a re-analysis of the deposited data

Results flagged for a closer look

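In 1 of 15 sets of 5 libraries (3 members at 5 ages), 1 library lay far from the other 4. It was mir-101b in 2-month replicate 2, a lane 4 library, with 1361 CPM against 1511 to 1565 CPM in the other 2-month libraries. Its mir-101a level, 5638 CPM, was also the lowest at that age. Chance flags about 1 set in 20 by this rule. Without this library the log2 fold change of mir-101b was 0.26 for 30 against 2 months and 0.19 for 9 against 2 months, both still called, against 0.33 and 0.24 with it.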

How the results depend on the processing

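For 30 against 2 months mir-101a, mir-101b and the family total stayed called and higher under all 9 other settings (0.32 to 0.39, 0.27 to 0.34 and 0.31 to 0.39) and in all 25 refits without 1 library (0.32 to 0.38, 0.26 to 0.34 and 0.32 to 0.38), and all 3 slopes stayed called. For 9 against 2 months mir-101b was no longer called with upper-quartile scaling (0.21) or only the 2 ages (0.23), and kept its call in the 25 refits (0.19 to 0.27). The sign of mir-101c, never called, turned for 9 against 2 months without a filter (0.0081) and without lane 3 (0.078), and for 15 against 9 months without lane 3 (-0.12). Refits without 1 library gave mir-101c -0.064 to 0.31 for 30 against 2 months, -0.29 to 0.19 for 9 against 2 and -0.026 to 0.42 for 15 against 9. With the 4 scalings (TMM, RLE, upper-quartile, library totals) the precursors called for 30 against 2 months split into 81, 68, 50 and 70 higher and 76, 89, 91 and 83 lower. The cause of these changes was not tested.

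The number of called precursors for 9 against 2 months, 33, was 15 without a filter, 9 with only the 2 ages, 50 with lane as a covariate and 19 to 39 without 1 library. For 15 against 9 months, with 0 calls, it was 1 with library totals, 2 with DESeq2 and 0 to 1 without 1 library. For 24 against 15 months, with 1 call, it was 0 with upper-quartile scaling, without a filter or without lane 3, 2 with DESeq2 or lane as a covariate, and 0 to 1 without 1 library. For 30 against 24 months, with 37 calls, it was 20 without a filter, 19 with only the 2 ages and 16 to 53 without 1 library. Under the stricter filter and with only 2 ages mir-101c was not always tested. No paired analysis was possible by replicate number because the labels give no replicate numbers shared across ages; lanes are shared, and with lane as a covariate mir-101a and mir-101b stayed called for 30 against 2 months (0.37 and 0.32) and 9 against 2 months (0.28 and 0.24). The 3 to 15 reads of mir-101c per library limit what can be said of it.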
